A study of Homo sapiens with 18 samples.

Results

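The genes described here encode the proteins of the cytosolic ribosome, the particle that translates nuclear-encoded mRNAs. They were chosen by symbol alone: protein-coding genes named RPL or RPS with a number (and an A, X or L ending where there is one), together with RPLP0, RPLP1, RPLP2 and RPSA. The rule found 81 genes among the 58825 in the count tables, 49 of the large subunit and 32 of the small subunit, spread over 21 chromosomes. OVCAR-3 is an established cell line of high-grade serous ovarian carcinoma, and its poly-A RNA was sequenced after 4 and 24 h in stripped medium with DMSO (the vehicle), 1 µM i-BET858 or 1 µM i-BET151. Each of the 6 groups had 3 biological replicates, which gave 18 libraries from 1 cell line, and each drug was compared with the DMSO libraries of its own time point. Both drugs are BET inhibitors (BETi), small molecules that keep the bromodomains of BET proteins from binding acetylated histone tails, and the study describes i-BET858 as bivalent. Both drugs share the DMSO libraries of a time point, so their values are set side by side below.

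A cytosolic ribosome holds 1 copy of nearly every ribosomal protein, and the cell makes these proteins in matched amounts. Most of their mRNAs begin with a terminal oligopyrimidine (TOP) motif, a C followed by an unbroken run of pyrimidines at the very start of the transcript, through which growth signals from mTORC1 and the RNA-binding protein LARP1 set how strongly they are translated. The mRNAs are among the most abundant of a dividing cell, and some of them serve as reference genes in qRT-PCR. Some proteins also have paralogs that are made in particular tissues, such as RPL3L in striated muscle, RPL10L and RPL39L in testis, and RPS27L, a target of p53.

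The transcript starts of the genes on which the results turn are shown because the TOP motif is the feature that most of these genes share. RefSeq start sites (assembly GRCh38.p14) were found for 64 of the 81 genes, and 42 of them (65.6%) had a C at the start followed by 4 pyrimidines, against 4.60% of 15843 protein-coding genes in the same table. Each line below holds 30 bases of the sense strand, 15 before the start and 15 from it on, with the run of C and T that covers or lies nearest to the start in capitals where it begins with C and holds at least 5 bases.
RPS16, chr19:39435935-39435964, minus strand: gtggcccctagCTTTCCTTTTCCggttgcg
RPS3, chr11:75399503-75399532, plus strand: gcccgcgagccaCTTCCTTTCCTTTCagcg
RPL13A, chr19:49487593-49487622, plus strand: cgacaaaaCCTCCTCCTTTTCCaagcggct
RPLP0, chr12:120201097-120201126, minus strand: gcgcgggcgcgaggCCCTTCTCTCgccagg
RPL28, chr19:55385917-55385946, plus strand: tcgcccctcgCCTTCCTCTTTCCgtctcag
RPL21, chr13:27251543-27251572, plus strand: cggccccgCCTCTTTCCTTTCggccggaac
RPL22, chr1:6199581-6199610, minus strand: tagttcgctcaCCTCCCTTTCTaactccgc
RPL29, chr3:51995881-51995910, minus strand: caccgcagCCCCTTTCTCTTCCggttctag
RPS27, chr1:153990747-153990776, plus strand: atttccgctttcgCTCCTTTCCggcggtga
RPL10, chrX:154398050-154398079, plus strand: tttttccaCTCTCagaaatatacgtctgtc
RPL6, chr12:112411428-112411457, minus strand: tatttgtatcctcagtgaatcagaaccaga
RPS27L, chr15:63157463-63157492, minus strand: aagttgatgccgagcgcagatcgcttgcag

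The run covers the start in the first 9 of these genes, lies before it in RPL10, and is missing from the windows of RPL6 and of the paralog RPS27L. At the start base itself 76.6% of the 64 ribosomal protein genes had a pyrimidine, against 13.0% of all protein-coding genes, as the plot of pyrimidines by distance shows. In the 250 bases before the start, on both strands, the ETS-type motif CCGGAAG was found in 29.7% of the 64 genes and in 11.8% of all protein-coding genes. The SP1-type motif GGGCGG was found in 56.2% against 56.0%. These are matches of letters in a fixed window and were not tested.

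**Figure D1:**
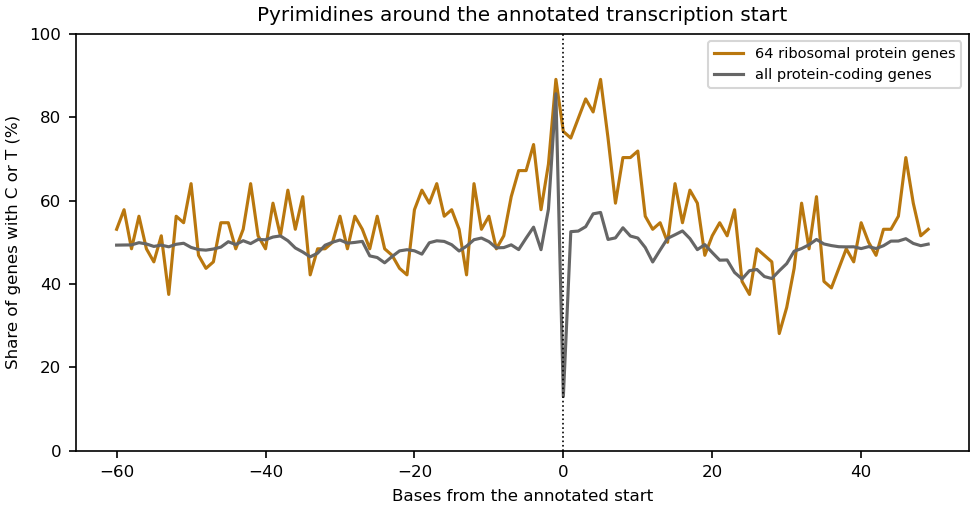
The share of genes (%) with C or T at each base from 60 before to 49 after the annotated RefSeq start, for 64 ribosomal protein genes and 15843 protein-coding genes. At the start base the share is 76.6% in the ribosomal protein genes and 13.0% in all protein-coding genes, and over the next 6 bases it is at least 75% in the ribosomal protein genes.

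Total gene counts lay between 27323969 and 46299994 a library, and 3 counts, the limit that a count of 0 allows, came to 0.0648 to 0.110 CPM (the count scaled to library size) for counting error only. The 8 markers of serous ovarian carcinoma (PAX8, WT1, MUC16 and others) summed to 6209 to 11674 CPM and were each at 1 CPM or more in all libraries, while no leukocyte or endothelial marker was. Of the 4 fibroblast markers COL1A1 alone was there, at 21.1 to 46.6 CPM. The libraries numbered replicate 3 stood apart: 17817 to 20642 genes had a count in them, against 23674 to 24947 in replicates 1 and 2. Ribosomal protein genes followed this split, since 33 of 79 (41.8%) were highest in replicate 3 within each of the 6 groups, against 7.63% of the 18154 genes tested. The DMSO library of replicate 3 at 24 h had the highest share of counts on ribosomal protein genes of all 18 libraries and held the highest level of 67 of 76 ribosomal protein genes among the 6 DMSO libraries. Results are therefore also given within replicate numbers (the replicate number as a block in the fit), from replicates 1 and 2 alone, and without that DMSO library where this matters.

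Per length, the levels of the genes ranged over orders of magnitude in DMSO. RPS16 was highest, at 9905 ± 1988 TPM (a share of transcripts scaled by exon length; mean ± SD, n = 6 DMSO libraries), followed by RPS2 at 8942 ± 1109 and RPS3 at 4823 ± 483 TPM. All of these are small-subunit proteins, RPS2 and RPS3 at the mRNA entry channel. The spreads of RPS16 and RPS2 overlap, while RPS3 lay below both in every DMSO library, with 5780 TPM at most against 7658 TPM at least. The median gene had 704 TPM, and 69 of 81 were at 100 TPM or more. The length used is that of all annotated exons of a gene merged, from 639 bases in RPS12 to 9840 in RPS29. It can exceed that of the mRNA made. The order of the genes and the number at 100 TPM or more thus depend in part on the annotation.

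The 12 genes under 100 TPM were of different kinds. RPL3L (0.584 ± 0.305 TPM) and RPS27L (7.16 ± 1.10 TPM) are paralogs, and RPL10L had no count in any library. RPS10, RPL17, RPL36A, RPS15A, RPL26, RPS23, RPL30 and RPL23A, also among them, encode constitutive subunits. Their exons overlap other annotated genes over 3.26% (RPS15A) to 40.8% (RPL30) of their length, as do those of 46 of all 81 genes, and RPL10, with the largest overlap (53.4%), stood at 384 TPM. The part of overlap in the low levels was not tested. RPL36A had 602 counts over all libraries while its pseudogene RPL36AP37 had 100530. Between 0.443 and 0.828% of the counts in each library fell on named pseudogenes of these genes, so levels of genes with such near-identical copies are uncertain. The filter on low counts was passed by 79 of the 81 genes, and these were tested in each comparison.

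Summed, the ribosomal protein transcripts took a larger share of the counts with either drug than with DMSO at 4 h and a smaller share at 24 h. At 4 h the share was 6.75, 6.29 and 7.06% of counts in DMSO, 8.52, 7.66 and 8.33% under i-BET858, and 7.51, 7.37 and 7.99% under i-BET151 (replicates 1, 2 and 3). Every treated library lay above every DMSO library. The difference of the means was 1.47 percentage points for i-BET858 and 0.923 for i-BET151, larger than the pooled SDs of 0.421 and 0.356.

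At 24 h the share was 6.49, 6.67 and 9.17% in DMSO, 5.64, 6.23 and 7.17% under i-BET858, and 5.70, 5.32 and 6.32% under i-BET151. The third DMSO library, at 9.17%, lay above all other libraries, the i-BET858 and DMSO groups overlapped, and the i-BET151 libraries all lay below DMSO. Means differed from DMSO by −1.1 percentage points for i-BET858, less than the pooled SD of 1.19, and by −1.66 for i-BET151, against a pooled SD of 1.12. Within replicate numbers both drugs were lower in all 3 pairs, with differences of −0.850, −0.444 and −2.0 points for i-BET858 and −0.790, −1.35 and −2.85 points for i-BET151. Without the third DMSO library the differences were −0.234 and −0.799 points. Large- and small-subunit genes moved alike: at 4 h the share of the large-subunit genes went from 3.19 ± 0.178% in DMSO to 3.84 ± 0.233% under i-BET858, and that of the small-subunit genes from 3.51 ± 0.206% to 4.33 ± 0.236% (SD, n = 3).

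**Figure D2:**
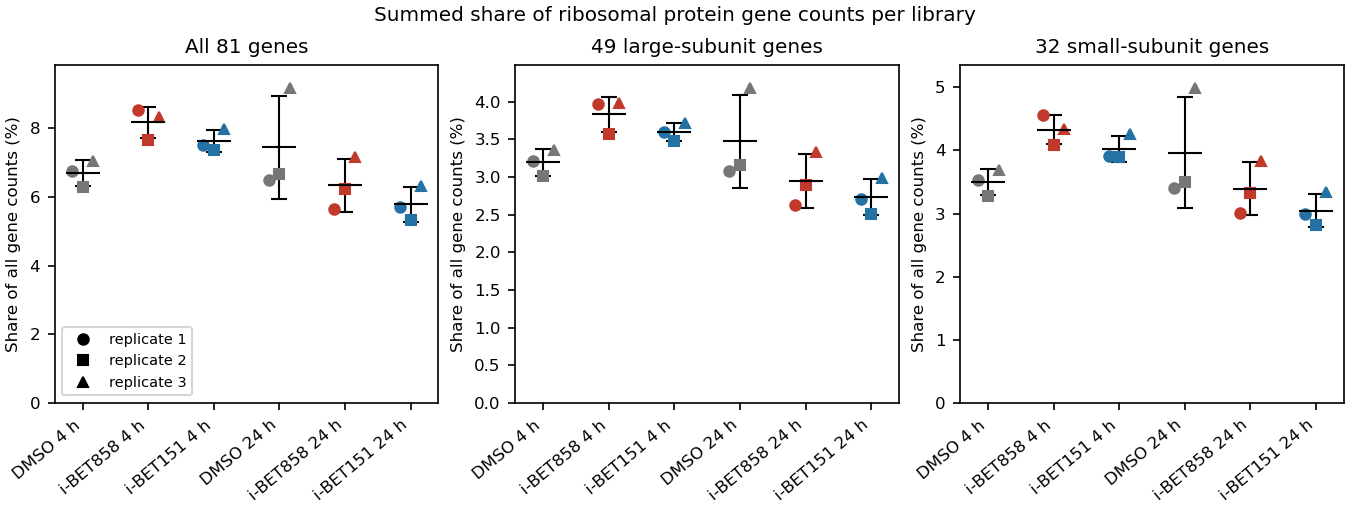
The share of all gene counts (%) on the 81 ribosomal protein genes, the 49 of the large subunit and the 32 of the small subunit, for every library; horizontal bars are means and error bars SDs of 3 replicates. At 4 h all treated libraries lie above DMSO, and at 24 h the DMSO library of replicate 3 (9.17%) lies above all others.

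The comparison at 4 h asks which single genes carried this early increase. With i-BET858, 46 of 79 genes were higher than in DMSO and 0 were lower (edgeR quasi-likelihood test, Benjamini-Hochberg adjusted p under 0.05), where 14.5% of all 17192 genes tested were higher and 16.3% lower. The log2 fold change lay above 0 in 78 of 79 genes, with a median of 0.42 (0.02 over all genes), and quartiles of 0.34 and 0.49. All 3 i-BET858 libraries lay above all 3 DMSO libraries in 54 genes, against 20.9% of all genes. Both subunits took part: 31 of 48 large-subunit genes (median 0.40) and 15 of 31 small-subunit genes (median 0.44) were higher.

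With i-BET151 the 4 h values pointed the same way and were smaller. The median was 0.23 (0.01 over all genes), 78 of 79 genes lay above 0, and 11 were higher and 0 lower, against 7.81% and 8.43% of all genes. The groups did not overlap in 33 genes, all with i-BET151 above DMSO, against 17.4% of all genes. Those 11 genes, with RPL3, RPL3L, RPL8, RPL10, RPS2, RPS3 and RPS20 among them, were all among the 46 of i-BET858. Several of these names, like those of other genes outside the naming rule below, were picked after their values were seen.

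Within replicate numbers, 71 genes were higher with i-BET858 and 52 under i-BET151 at 4 h, where 22.3% and 15.6% of all genes were. From replicates 1 and 2 alone the counts were 68 and 15, against 20.3% and 12.4%, with medians of 0.43 and 0.23. The scaling also bears on the counts: when libraries were scaled by their totals alone and not by TMM, the median of all genes at 4 h with i-BET858 moved to −0.14, the median of the ribosomal protein genes to 0.26 and the count of higher genes to 20, where 10.2% of all genes were higher and 21.6% lower. With i-BET151 that count was 4, where 6.62% of all genes were higher. Single libraries bear on the counts as well. With i-BET858, 24 genes were higher without DMSO replicate 2 and 30 without i-BET858 replicate 1, against 10.4% and 11.5% of all genes, and 37 to 44 without any other 1 library. With i-BET151, 2 were higher without DMSO replicate 2, 5 without DMSO replicate 3, and 3, 3 and 4 without i-BET151 replicates 1, 2 and 3, against 4.93 to 7.94% of all genes.

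RPL28 of the large subunit had the largest 4 h increase among genes above the lowest levels. It stood at 386, 318 and 498 CPM in DMSO, 643, 520 and 832 under i-BET858, and 509, 505 and 683 under i-BET151. All i-BET858 libraries exceeded all DMSO libraries, and replicate 3 was highest in each group. The log2 fold change was 0.74 ± 0.20 (SE; adjusted p = 0.0167, edgeR) with i-BET858 and 0.50 ± 0.20 (adjusted p = 0.126) with i-BET151, the latter passing within replicate numbers (adjusted p = 8.73e-05). The i-BET858 call was lost without DMSO replicate 1, DMSO replicate 2 or i-BET858 replicate 3.

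RPL10, a protein of the large subunit that is needed for its final maturation and for joining of the subunits, showed much less spread, although 53.4% of its exonic length, more than in any other of the 81 genes, overlaps DNASE1L1, SNORA70 and a further gene. Its levels were 423, 409 and 436 CPM in DMSO, 657, 629 and 651 under i-BET858, and 534, 535 and 565 under i-BET151 at 4 h. The groups of the drugs and DMSO were fully separate. Log2 fold changes were 0.62 ± 0.09 (adjusted p = 2.58e-04) and 0.36 ± 0.08 (adjusted p = 0.0134), the second lost without DMSO replicate 2 or without a filter on low counts. RPL10 remained higher at 24 h with i-BET858 (582, 626 and 662 against 402, 410 and 480 CPM; 0.49 ± 0.11, adjusted p = 0.00338), while i-BET151 gave 0.16 ± 0.11 (adjusted p = 0.289). Between the drugs RPL10 differed by 0.34 ± 0.11 at 24 h (adjusted p = 0.237, and 0.0437 within replicate numbers).

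RPS20, a small-subunit protein of the head domain, followed a similar course. It stood at 921, 861 and 822 CPM in DMSO at 4 h, at 1431, 1328 and 1220 under i-BET858 and at 1160, 1157 and 1018 under i-BET151, with no overlap of either drug with DMSO. The log2 fold changes were 0.61 ± 0.10 (adjusted p = 5.71e-04) and 0.35 ± 0.10 (adjusted p = 0.0269). At 24 h, i-BET858 was still above DMSO (0.37 ± 0.11, adjusted p = 0.0229) and i-BET151 gave 0.08 ± 0.11 (adjusted p = 0.642).

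Among the 3 genes with the highest level per length, RPS2 and RPS3 rose at 4 h with both drugs, RPS3 by 0.44 with i-BET858 (adjusted p = 5.53e-04) and by 0.25 with i-BET151 (adjusted p = 0.0276, lost in 5 of 6 fits that left out 1 library). RPS2 had 5274, 4274 and 4933 CPM in DMSO, 7183, 7145 and 7562 under i-BET858 and 6003, 6209 and 6638 under i-BET151. Its log2 fold changes were 0.60 ± 0.09 (adjusted p = 3.27e-04) and 0.38 ± 0.09 (adjusted p = 0.0118, and 0.0552 in the fit of all 18 libraries), though its pseudogene RPS2P5 alone held 974 to 2285 CPM and reads may be split between them. RPS16 gave 0.39 ± 0.15 (adjusted p = 0.0724) and 0.22 ± 0.15 (adjusted p = 0.381), which both passed within replicate numbers (adjusted p = 4.79e-06 and 0.00166).

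**Figure D3:**
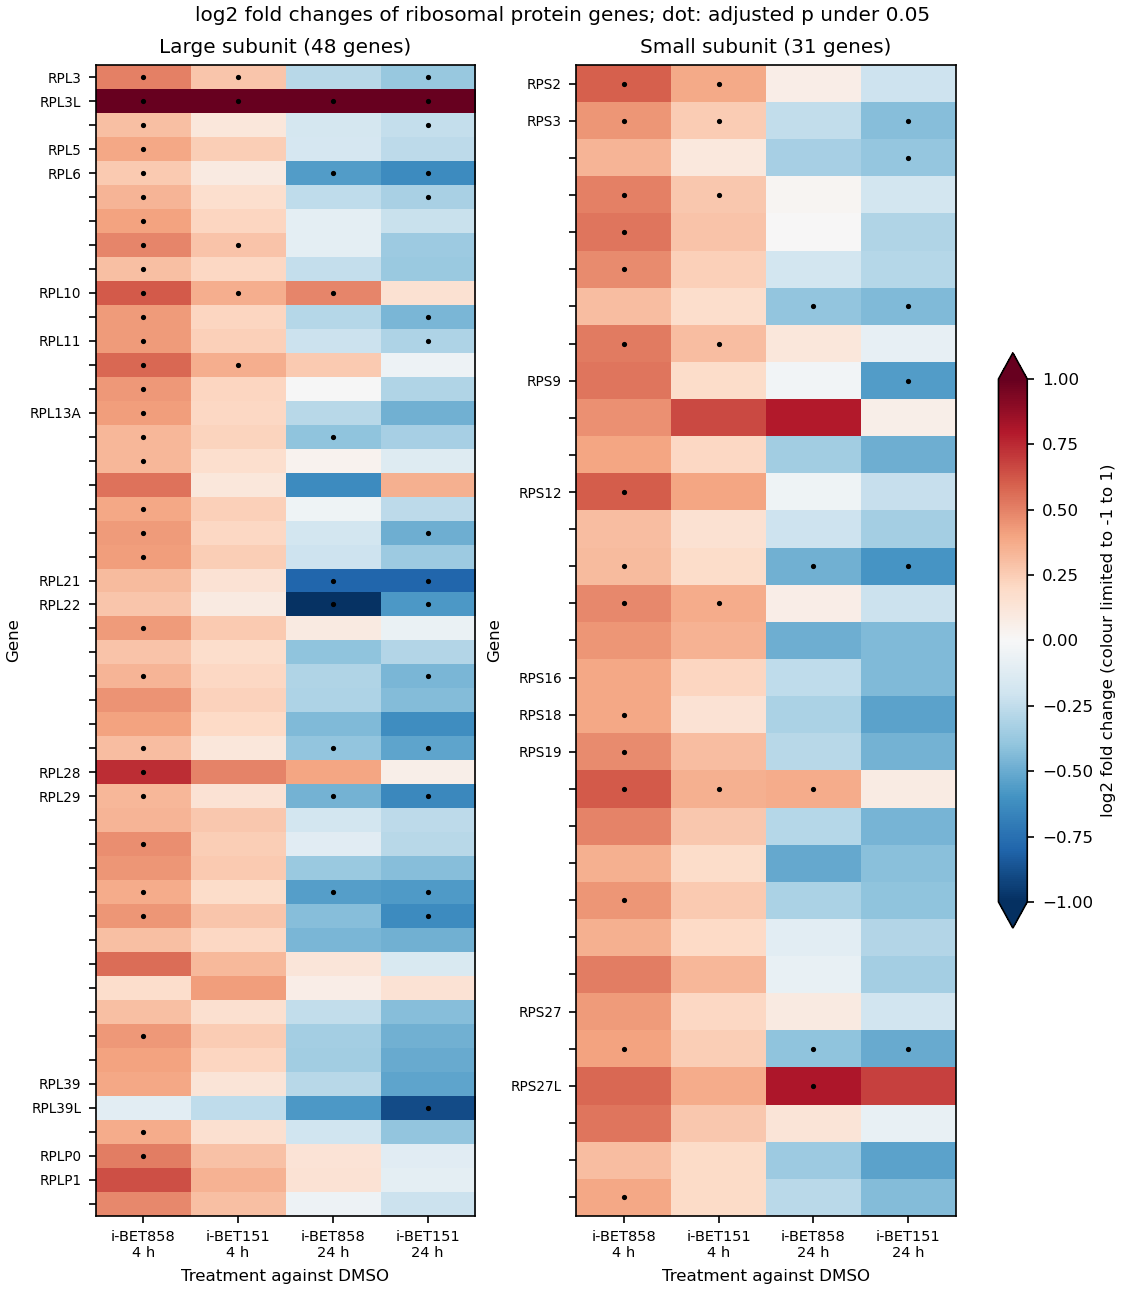
Log2 fold changes against DMSO of the 79 tested genes (rows, by subunit; the genes chosen by the naming rule are labelled) with each drug and time (columns); colour is limited to −1 to 1 and a dot marks an adjusted p under 0.05. At 4 h nearly all genes are above 0 with both drugs, at 24 h 59 and 71 of 79 are below 0 under i-BET858 and i-BET151, and RPL3L is above 1 in all columns. Without DMSO replicate 3 at 24 h, 35 and 55 were below 0 at 24 h.

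At 24 h most values were below 0. Calls under i-BET858 fell to 14 genes from 46 at the earlier time, whereas the share of all genes called rose from 30.8% to 41.7%. Under i-BET151 calls rose from 11 to 22 genes, or from 13.9% to 27.8% of those tested. The share of all genes called with that drug rose as well, from 16.2% to 33.8%, and was the larger at both times. With i-BET858, 10 of 79 genes were lower and 4 higher, against 21.3% and 20.5% of 17157 genes tested, so the share of calls was below that of all genes. The median log2 fold change was −0.24 (−0.01 over all genes), with 59 genes below 0. With i-BET151, 21 genes were lower and 1 higher, against 16.6% and 17.2%, and the median was −0.36 (0.00 over all genes), with 71 genes below 0.

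The groups did not overlap, with all treated libraries below DMSO, in 11 genes for i-BET858 and in 30 for i-BET151, against 27% and 24% of all genes. Of the lower genes, 9 were called with both drugs: RPL6, RPL21, RPL22, RPL27A, RPL29, RPL34, RPS7, RPS14 and RPS27A. The higher genes with i-BET858 were RPL10, RPS20, RPL3L and RPS27L, and that with i-BET151 was RPL3L. The DMSO library of replicate 3 bears on the direction: without it the median was 0.03 for i-BET858, with 44 genes above 0 and 5 lower, and −0.14 for i-BET151, with 11 lower, where 18.9% and 14.3% of all genes were lower. Within replicate numbers 37 and 53 genes were lower (26.3% and 22.6% of all genes), and from replicates 1 and 2 alone 30 and 45 (31% and 28.1%), with medians of −0.14 and −0.23. Without i-BET858 replicate 1, 4 genes were lower with that drug (16.6% of all genes), and without i-BET151 replicates 1 and 2 in turn, 11 and 8 were lower with i-BET151 (13.1% and 11.4%).

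RPL22, a large-subunit protein that cells can do without because its paralog RPL22L1 can take its place, had the largest decrease with i-BET858. The gene lies at chr1:6185020-6209389 on the minus strand, and 10.2% of its exonic length overlaps RNF207 and a further annotated gene. Its named pseudogenes held 118072 counts over all libraries against its own 104211, so its counts are uncertain where reads could be split. At 24 h it stood at 192, 197 and 162 CPM in DMSO, 95, 98.1 and 92.3 under i-BET858, and 135, 124 and 116 under i-BET151. The 3 groups did not overlap. Log2 fold changes were −0.99 ± 0.10 (adjusted p = 2.79e-05) and −0.57 ± 0.10 (adjusted p = 0.00136), with −0.41 ± 0.10 between the drugs (adjusted p = 0.141, and 0.0151 within replicate numbers).

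RPL22 had not been lower at 4 h, where it gave 0.28 ± 0.11 under i-BET858 (adjusted p = 0.0666, and 0.00843 within replicate numbers) and 0.09 ± 0.11 under i-BET151 (adjusted p = 0.623). Its paralog RPL22L1, which the symbol rule leaves out, fell at 24 h as well, by 0.83 under i-BET858 (adjusted p = 0.0100) and by 0.98 under i-BET151 (adjusted p = 0.00547) on the log2 scale.

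RPL21 also fell with both drugs at 24 h. Its levels were 241, 235 and 264 CPM in DMSO, 142, 158 and 140 under i-BET858, and 168, 136 and 132 under i-BET151. Both treated groups lay below DMSO and overlapped each other. The log2 fold change was −0.79 ± 0.12 with each drug (adjusted p = 3.14e-04 and 5.00e-04).

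RPL29 and RPL6, both large-subunit proteins, fell with both drugs as well. RPL29 had 771, 784 and 947 CPM in DMSO, 573, 637 and 641 under i-BET858 and 558, 519 and 553 under i-BET151, a log2 fold change of −0.48 ± 0.11 (adjusted p = 0.00453) and −0.64 ± 0.11 (adjusted p = 0.00104). RPL6 had 1198, 1219 and 1407 CPM in DMSO, 841, 897 and 929 under i-BET858 and 851, 807 and 853 under i-BET151. It gave −0.56 ± 0.10 (adjusted p = 8.30e-04) and −0.63 ± 0.10 (adjusted p = 5.77e-04), and all treated libraries of both genes lay below all DMSO libraries.

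Whether a drug's effect changed between 4 and 24 h was tested directly, as the drug-by-time interaction over the 18 libraries. With i-BET858 the change was downward in 28 of 79 genes and upward in 0, against 12.6% downward and 14.6% upward among all 18154 genes tested, with a median of −0.58 (0.00 over all genes). With i-BET151 it was downward in 24 and upward in 0, against 6.82% and 6.99%, with a median of −0.57 (0.01 over all genes). The log2 fold change was above 0 at 4 h and below 0 at 24 h in 58 genes with i-BET858 and in 70 under i-BET151. The share of all genes with such a change of sign is not given. These counts depend on 1 library: without DMSO replicate 3 at 24 h, 35 of 79 genes lay below 0 at 24 h with i-BET858 and 55 with i-BET151.

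Calls in opposite directions at both times were made in 7 genes with i-BET858 (RPL6, RPL14, RPL27A, RPL29, RPL34, RPS14 and RPS27A) and in 2 under i-BET151 (RPL3 and RPS3). No share of all genes with such opposite calls is given here, so whether 7 or 2 is unusual cannot be read from them. Several of these calls were not stable: the 4 h call of RPL6 was lost in all 6 fits that left out 1 library. The i-BET151 calls of RPL3 were lost in 5 of 6 such fits at 4 h and 3 of 6 at 24 h, and those of RPS3 in 5 and 4 of 6, DMSO replicates 2 and 3 and all i-BET151 replicates among them at 4 h and DMSO replicate 3 and i-BET151 replicates 1 and 2 at 24 h for both genes. The downward change also held in other fits of the same libraries. Without the DMSO library of replicate 3 at 24 h, 22 and 16 genes were called (10.7% and 5.47% of all genes), with a median of −0.36 for both drugs. Without i-BET151 replicate 2 at 24 h the count for that drug was 15 (4.42%). Replicates 1 and 2 alone gave 56 and 50 genes (20.5% and 13.9%), and the fit within replicate numbers 65 and 68 (18.5% and 13.1%).

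Few genes of any kind were called between DMSO at 24 and 4 h (0.0386% of all genes with edgeR and 0.510% with DESeq2). None of the ribosomal protein genes was among them with either tool, and 0 had an unadjusted p under 0.05 in edgeR. Their median was 0.10, with 68 of 79 genes above 0. It was −0.10 without the third DMSO library at 24 h, with 64 below 0, and −0.04 in replicates 1 and 2 alone, with 59 below 0.

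**Figure D4:**
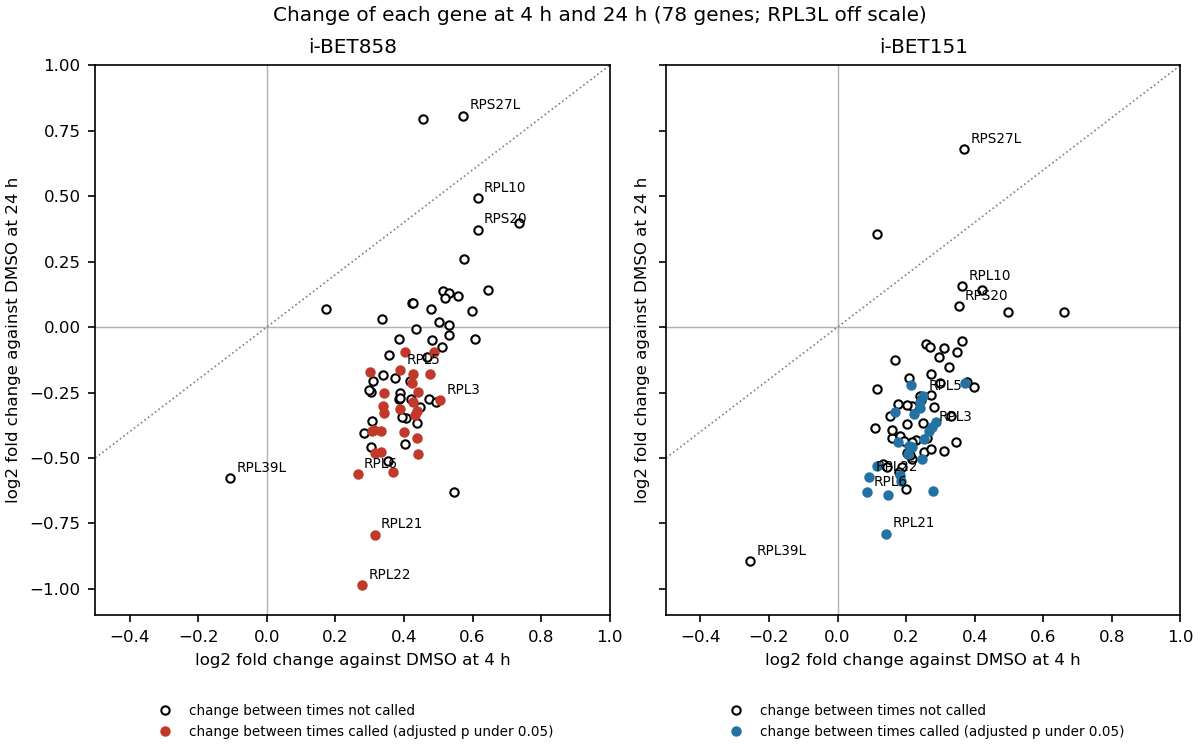
Log2 fold change against DMSO at 4 h (x axis) and at 24 h (y axis) of 78 genes with each drug, with filled points where the change between the times passed an adjusted p of 0.05; RPL3L lies off the scale. Most genes lie right of 0 at 4 h and below 0 at 24 h (58 under i-BET858 and 70 under i-BET151 among the 79 genes tested), and RPS27L, RPL10 and RPS20 stay above 0 at both times. Without DMSO replicate 3 at 24 h, 35 genes under i-BET858 and 55 under i-BET151 were below 0 at 24 h.

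The drugs were compared with each other at the same dose and time, 2 comparisons of all genes with p-values adjusted within each. No ribosomal protein gene passed at 4 h or at 24 h in edgeR, where 0.971% and 0.21% of all genes did, while 13 and 5 had an unadjusted p under 0.05. DESeq2 called 0 and 1. The log2 difference (i-BET858 minus i-BET151) was above 0 in 77 of 79 genes at 4 h and in 71 at 24 h, with medians of 0.19 and 0.17.

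The interval of the difference shows what was resolved: over the 76 genes with an average of at least 1 on the log2 CPM scale, the median 95% interval ran from −0.08 to 0.44 at 4 h and from −0.22 to 0.57 at 24 h. It lay within −1 and 1 in 71 and 67 of these genes. A missed threshold does not show that the drugs act alike, and within replicate numbers 23 genes passed at 4 h and 3 at 24 h, where 9.63% and 4.37% of all genes did.

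RPS9, of the small subunit, and RPL3L had the largest differences between the drugs among genes whose average log2 CPM was 1 or more, both uncalled. RPS9 stood at 2903, 2823 and 1821 CPM under i-BET858 and 1073, 2151 and 2711 under i-BET151 at 4 h, with the libraries of each drug far apart. At 24 h it had 1927, 1914 and 2142 under i-BET858 against 1203, 1542 and 1365 under i-BET151, with no overlap. The 24 h difference was 0.53 ± 0.16 (adjusted p = 0.226, and 0.0197 within replicate numbers), and i-BET151 alone lay below DMSO (−0.56 ± 0.16, adjusted p = 0.0211) while i-BET858 gave −0.03 ± 0.16 (adjusted p = 0.902).

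RPL5, which with RPL11 and 5S RNA forms the particle that restrains MDM2, was the study's reference gene in qRT-PCR, so its own stability was measured. It lies at chr1:92832013-92841924 on the plus strand, with 9.98% of its exonic length under SNORD21 and DIPK1A. At 4 h it stood at 871, 814 and 768 CPM in DMSO, 1189, 1034 and 982 under i-BET858, and 1013, 974 and 933 under i-BET151. Every treated library lay above every DMSO library. The log2 fold changes were 0.39 ± 0.10 (adjusted p = 0.0102) with i-BET858, lost without DMSO replicate 3 or i-BET858 replicate 1 and with scaling by library totals (0.23, adjusted p = 0.128), and 0.25 ± 0.10 (adjusted p = 0.113, and 0.00473 within replicate numbers) with i-BET151.

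At 24 h RPL5 had 832, 861 and 996 CPM in DMSO, 749, 842 and 876 under i-BET858, and 781, 737 and 760 under i-BET151. The i-BET858 group overlapped DMSO and the i-BET151 group lay below it. The values were −0.17 ± 0.10 (adjusted p = 0.229) and −0.26 ± 0.10 (adjusted p = 0.0720, and 0.0161 within replicate numbers). As single libraries were left out, they ran from −0.22 to −0.05 and from −0.32 to −0.16. The change between the times was −0.51 ± 0.14 (adjusted p = 0.00946, and 0.0587 without a filter on low counts) for i-BET858 and −0.49 ± 0.14 (adjusted p = 0.0231, and 0.0990 without the filter) for i-BET151, the latter also lost without any 1 of 5 libraries (DMSO replicates 2 and 3 and i-BET151 replicate 1 at 4 h, DMSO replicate 3 and i-BET151 replicate 2 at 24 h).

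RPL11, its partner, behaved alike at 4 h, with 511, 541 and 530 CPM in DMSO and 716, 674 and 727 under i-BET858. The increase was 0.42 ± 0.08 (adjusted p = 0.00274). With i-BET151 at 24 h it fell by 0.31 on the log2 scale (adjusted p = 0.0279), a call lost in 5 of 6 fits that left out 1 library and without a filter on low counts.

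Other genes of the family that are common reference genes moved by similar sizes. RPLP0, the stalk protein that binds elongation factors, rose by 0.51 ± 0.13 at 4 h with i-BET858 (adjusted p = 0.00995, and 0.0600 in the fit of all 18 libraries), RPL13A by 0.42 ± 0.12 (adjusted p = 0.0206) and RPS18 by 0.39 ± 0.11 (adjusted p = 0.0241). The RPL13A and RPS18 calls were lost in 3 and in 4 of 6 fits that left out 1 library, DMSO replicate 2 and i-BET858 replicates 1 and 3 among them for both, and both also in the fit of all 18 libraries and when libraries were scaled by their totals. With i-BET151 at 4 h the values of RPLP0, RPL13A and RPS18 were 0.29, 0.21 and 0.14 (adjusted p = 0.150, 0.294 and 0.455, and 0.00317, 0.0228 and 0.111 within replicate numbers).

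At 24 h with i-BET858, RPLP0, RPL13A and RPS18 gave 0.14, −0.27 and −0.31 (adjusted p = 0.686, 0.336 and 0.239, and 0.153, 0.0326 and 0.0143 within replicate numbers). With i-BET151 at 24 h they gave −0.12, −0.48 and −0.53 (adjusted p = 0.753, 0.107 and 0.0623, and 0.560, 0.00132 and 5.97e-04 within replicate numbers). With 1 library left out, RPS18 ran from −0.46 to −0.02 with i-BET858 and from −0.66 to −0.25 with i-BET151. RPL13A with i-BET151 ran from −0.62 to −0.19. RPLP0 shows the replicate split: 1377, 1377 and 2399 CPM in DMSO and 1602, 1752 and 2487 under i-BET858 at 24 h, with replicate 3 highest in both groups. Its 24 h value ran from −0.06 to 0.49 as single libraries were left out. RPS19, the gene most often mutated in Diamond-Blackfan anaemia, gave 0.47 ± 0.16 at 4 h with i-BET858 (adjusted p = 0.0448, lost in 4 of 6 such fits, with scaling by library totals and in the fit of all 18 libraries).

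**Figure D5:**
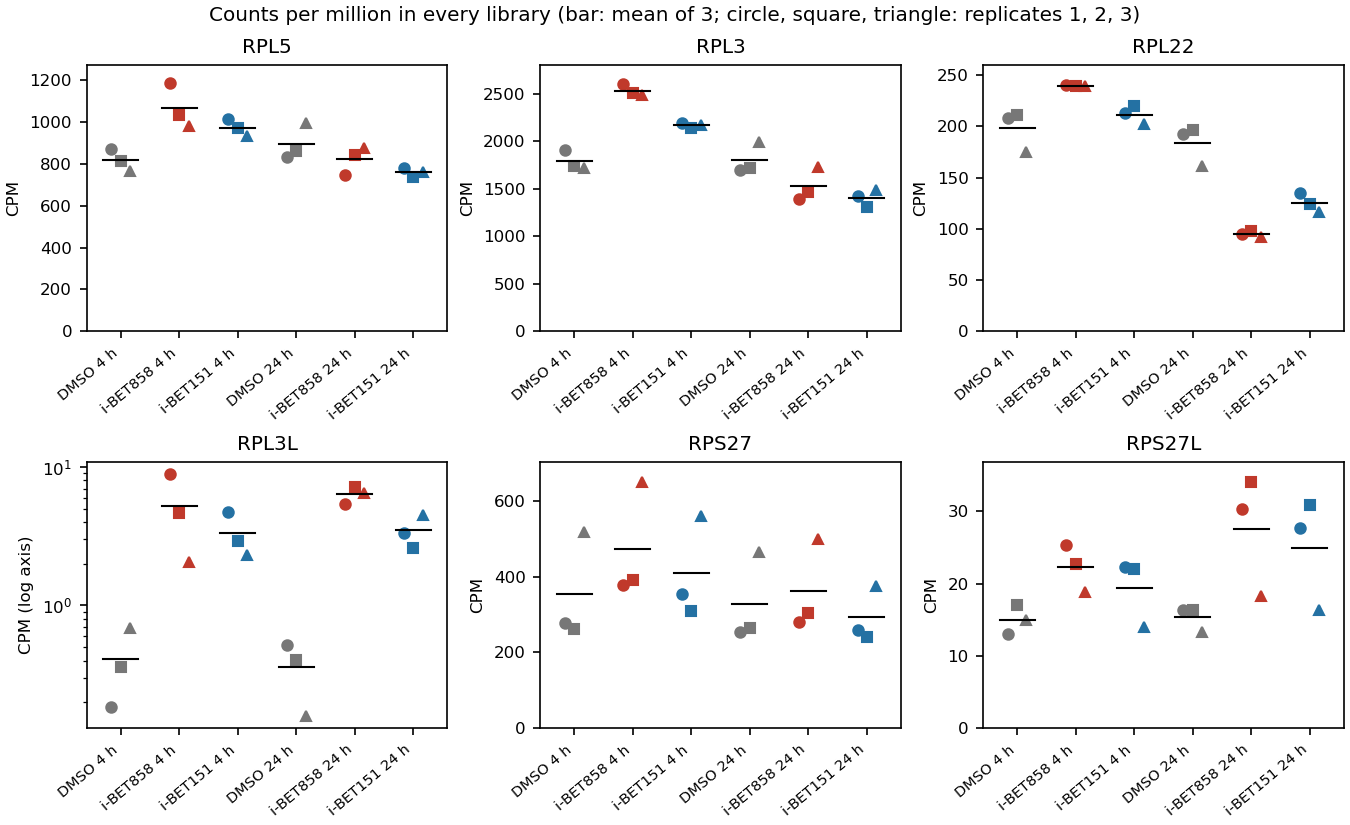
CPM of RPL5, RPL3, RPL22, RPL3L, RPS27 and RPS27L in every library (points by replicate, horizontal bars the means of 3; RPL3L on a log axis). RPL22 is lowest with i-BET858 at 24 h, RPL3L is above DMSO in all treated libraries, and RPS27 is highest in replicate 3 of each group.

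RPL3L, the striated-muscle paralog of the peptidyl-transferase-centre protein RPL3, showed the largest change of all 79 genes. It lies at chr16:1943974-1957606 on the minus strand and its exons overlap no other gene. At 4 h it had 0.184, 0.361 and 0.689 CPM in DMSO, 8.90, 4.62 and 2.07 under i-BET858, and 4.76, 2.94 and 2.30 under i-BET151. At 24 h it had 0.515, 0.404 and 0.159 CPM in DMSO, 5.4, 7.14 and 6.52 under i-BET858, and 3.32, 2.61 and 4.51 under i-BET151.

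Treated and DMSO libraries did not overlap at either time. The log2 fold changes of RPL3L were 3.65 ± 0.61 and 3.01 ± 0.60 at 4 h (adjusted p = 8.69e-04 and 0.00605) and 4.09 ± 0.40 and 3.24 ± 0.39 at 24 h (adjusted p = 1.97e-05 and 1.37e-04), for i-BET858 and i-BET151, and each call held whichever library was left out. It had few counts in DMSO (0.584 ± 0.305 TPM, n = 6 libraries) and was not tested when 10 counts in every library were required. The sizes of these folds rest on those low DMSO levels. RPL3L was the only one of the 79 genes with a called change of at least 2-fold, which 14.1%, 7.1%, 18.8% and 13.7% of all genes had with i-BET858 and i-BET151 at 4 h and at 24 h, in that order. Even so it stayed far below RPL3, which had 2604, 2510 and 2491 CPM with i-BET858 at 4 h against 1907, 1738 and 1723 in DMSO (0.51 ± 0.08, adjusted p = 4.15e-04).

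RPL3L and RPS2 lie close together on chromosome 16, so the genes between and around them were examined, a choice made after the RPL3L values were seen. At 4 h with i-BET858, MSRB1 gave 0.53 ± 0.10 (adjusted p = 0.00248), NDUFB10 0.40 ± 0.12 (adjusted p = 0.0278), TBL3 0.04 ± 0.16 (adjusted p = 0.890) and GFER −0.81 ± 0.12 (adjusted p = 5.08e-04). With i-BET151 at 4 h, MSRB1 was also higher (0.44 ± 0.10, adjusted p = 0.0137) and GFER lower (−0.48 ± 0.12, adjusted p = 0.0214), and NDUFB10 and TBL3 did not pass. At 24 h GFER was lower with both drugs, at −0.42 ± 0.10 with i-BET858 and −0.52 ± 0.10 with i-BET151 (adjusted p = 0.00810 and 0.00303), and so was NDUFB10, at −0.47 ± 0.16 and −0.48 ± 0.16 (adjusted p = 0.0375 and 0.0418). MSRB1 and TBL3 did not pass at 24 h with either drug. HS3ST6 gave 1.91 ± 1.03 and 1.37 ± 1.04 at 4 h with i-BET858 and i-BET151 and did not pass (adjusted p = 0.194 and 0.429).

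RPS27L, at chr15:63125872-63158021 on the minus strand, encodes a p53-responsive paralog of the zinc-finger protein RPS27, and p53 is mutated in most tumours of this kind. At 24 h it had 16.4, 16.3 and 13.3 CPM in DMSO, 30.4, 34.0 and 18.3 under i-BET858, and 27.7, 30.9 and 16.3 under i-BET151. Replicate 3 was lowest in each group, and i-BET151 replicate 3 lay within the DMSO range. The log2 fold changes were 0.81 ± 0.26 (adjusted p = 0.0283, lost in 5 of 6 fits that left out 1 library and with scaling by library totals) and 0.68 ± 0.26 (adjusted p = 0.0668, and 0.00188 within replicate numbers). At 4 h they were 0.57 ± 0.20 (adjusted p = 0.0530, and 0.00788 within replicate numbers) and 0.37 ± 0.20 (adjusted p = 0.261).

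RPS27 itself had 255, 265 and 466 CPM in DMSO, 281, 304 and 499 under i-BET858, and 260, 241 and 376 under i-BET151 at 24 h. It gave 0.09 ± 0.29 and −0.19 ± 0.29 (adjusted p = 0.831 and 0.651), and replicate 3 exceeded the mean of replicates 1 and 2 by 1.5 to 1.91 times in the 6 groups. In RPL39 that ratio was 1.84 to 2.38, and in RPLP1 it was 1.63 to 2.29.

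RPL39L, the testis paralog of the exit-tunnel protein RPL39, was called lower at 24 h with i-BET151 only. It stood at 32.5, 36.4 and 60.3 CPM in DMSO, 24.5, 28.1 and 36.7 under i-BET858, and 22.4, 24.2 and 24.2 under i-BET151. The i-BET151 libraries all lay below DMSO, those of i-BET858 overlapped it. The log2 fold changes were −0.58 ± 0.23 (adjusted p = 0.0663, and 0.00464 within replicate numbers) and −0.89 ± 0.23 (adjusted p = 0.0122). As single libraries were left out, they ran from −0.75 to −0.22 and from −1.07 to −0.54. RPL39L was the only tested gene below 0 at 4 h with either drug (−0.11 and −0.26, adjusted p = 0.711 and 0.403).

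Genes with and without the start motif were set side by side. At 4 h with i-BET858, 23 of 42 tested genes with a C and 4 pyrimidines at the RefSeq start were higher (median 0.40) and 13 of 21 without it (median 0.43), against 14.5% of all genes. At 24 h with i-BET151, 11 of 42 and 7 of 21 were lower (medians −0.42 and −0.34), against 16.6% of all genes. At 4 h with i-BET151, 2 of 42 and 4 of 21 were higher (medians 0.22 and 0.24), against 7.81%. At 24 h with i-BET858, 7 of 42 and 3 of 21 were lower (medians −0.27 and −0.21), shares below the 21.3% of all genes, and 0 and 2 higher, against 20.5%. The difference was not tested. Of 19 tested non-ribosomal genes with TOP mRNAs, 6 were higher and 1 lower at 4 h with i-BET858 (median 0.30), against 14.5% and 16.3% of all genes, PABPC1 at 0.74 ± 0.13 (adjusted p = 0.00108), NPM1 at 0.62 ± 0.10 (adjusted p = 9.70e-04) and EIF4B at −0.68 ± 0.11 (adjusted p = 9.54e-04) among them. With i-BET151 at 4 h, 2 were higher and 1 lower (median 0.15), against 7.81% and 8.43%. At 24 h, 2 were higher and 5 lower with i-BET858 (median −0.20), against 20.5% and 21.3%, and 1 was higher and 5 lower with i-BET151 (median −0.20), against 17.2% and 16.6%. PABPC1 was still higher at 24 h, at 0.66 ± 0.12 and 0.55 ± 0.12 (adjusted p = 0.00150 and 0.00595).

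Of the 15 regulators of TOP mRNAs, 3 (20.0%) passed with i-BET858 at 4 h and 5 (33.3%) at 24 h, where 30.8% and 41.7% of all genes did. With i-BET151, 1 passed at 4 h and 5 at 24 h, where 16.2% and 33.8% did. At 4 h with i-BET858, 1 was higher and 2 lower, with EIF4E, the cap-binding protein, at −0.81 ± 0.14 (adjusted p = 0.00116) and RPS6KB2, an S6 kinase, at 0.47 ± 0.12 (adjusted p = 0.0120, lost without DMSO replicate 1 or 2 and with scaling by library totals). At 24 h, 4 were higher and 1 lower with each drug, against 20.5% and 21.3% of all genes for i-BET858, and 17.2% and 16.6% for i-BET151. MTOR gave 0.70 ± 0.12 under i-BET858 and 0.65 ± 0.12 under i-BET151 (adjusted p = 7.88e-04 and 0.00182), and EIF4EBP2, a repressor of cap-dependent translation, 0.84 ± 0.17 and 0.87 ± 0.17 (adjusted p = 0.00245 and 0.00268).

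Of the 15 tested chaperones and importers, which escort ribosomal proteins before assembly, 4 were lower and 1 higher with i-BET858 at 4 h (median −0.20), against 16.3% lower and 14.5% higher among all genes. The lower ones were led by LTV1, an assembly factor of the small subunit, at −1.37 ± 0.19 (adjusted p = 2.40e-04) and PDCD2L at −1.34 ± 0.26 (adjusted p = 0.00242). GRWD1, a chaperone of RPL3, was at −0.83 ± 0.17 (adjusted p = 0.00328), although RPL3 itself rose. With i-BET151, 1 of 15 was lower and 0 higher, against 8.43% and 7.81% of all genes. At 24 h, 5 were lower and 1 higher with i-BET858, against 21.3% and 20.5%, and 3 lower and 1 higher with i-BET151, against 16.6% and 17.2%.

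Of the 76 tested genes for mitochondrial ribosomal proteins, nuclear-encoded parts of the separate ribosome of mitochondria, 27 were lower and 1 higher at 4 h with i-BET858 (median −0.30), against 16.3% and 14.5% of all genes. There the cytosolic set had 0 lower and 46 higher. MRPL50 gave −1.33 ± 0.19 (adjusted p = 2.82e-04), MRPL44 −1.33 ± 0.19 (adjusted p = 3.35e-04) and MRPL19 −1.02 ± 0.11 (adjusted p = 5.47e-05). With i-BET151 at 4 h, 4 (5.26%) were lower and 0 higher (median −0.17), fewer than the 8.43% of all genes that were lower. At 24 h, 38 were lower and 2 higher with i-BET858 (median −0.32) and 34 lower and 1 higher with i-BET151 (median −0.35), against 21.3% and 16.6% of all genes lower, with MRPL11 at −1.70 ± 0.14 and −1.23 ± 0.14 (adjusted p = 6.36e-06 and 8.20e-05).

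The transcripts counted on mitochondrial DNA took 0.640 ± 0.211% of counts in DMSO, 0.840 ± 0.164% under i-BET858 and 0.923 ± 0.142% under i-BET151 at 4 h (SD, n = 3), and their part in these results was not tested. Of the ribosomal proteins and paralogs that the symbol rule leaves out, RPL7L1 fell at 4 h by 0.73 under i-BET858 (adjusted p = 2.41e-04) and by 0.34 under i-BET151 (adjusted p = 0.0377, lost in all 6 fits that left out 1 library). In bulk RNA, more transcripts per cell and a larger share of transcripts because others fell cannot be told apart.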

How the data were processed

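Poly-A RNA of 18 OVCAR-3 libraries was measured. The deposited values are raw counts per gene that the authors made with STAR's gene counting on GRCh38, which counts reads that map to 1 place and overlap 1 gene. The STAR version, the annotation and the strand column used are not given in the sources used here, and GENCODE 44 supplied symbols, positions and lengths for 58472 of 58825 gene IDs. CPM and TPM were computed from the counts.

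Genes with low counts were removed (filterByExpr), libraries scaled by TMM and tests made with edgeR 4.0.16 (quasi-likelihood, R 4.3.3) in the 9 libraries of a time point, or in all 18 for changes between times. Adjusted p (Benjamini-Hochberg) was taken over all genes tested and called under 0.05. DESeq2 1.42.0, other scalings and filters, single libraries left out and a replicate block were alternatives. The scripts were tested on simulated data. Deviations from group means correlated within replicate numbers at 0.104 to 0.319 at 4 h and 0.160 to 0.300 at 24 h in every pair, and between different numbers at −0.302 to 0.235 and −0.287 to 0.254 (medians −0.19 and −0.23). The main fits did not pair libraries by number, and the replicate block was an alternative only. It was used because every same-numbered pair within a time point exceeded 0.1. Across the times, same-numbered pairs correlated at 0.0226 to 0.314. How much of this correlation is the split of replicate 3 was not tested.

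Named were RPL5, RPLP0, RPL13A, RPS18, RPL11 and RPS19, the paralogs with a name ending in L and their partners, the 3 highest by length-scaled level, the 3 largest changes each way per drug comparison and the 2 largest between drugs (average log2 CPM of at least 1), and up to 3 called genes a related list. Members and lists were chosen with earlier results of these data known. A few genes are not reported here by name.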

Additional observations from a re-analysis of the deposited data

Results flagged for a closer look

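The change of a drug's effect between 4 and 24 h was tested as the drug-by-time interaction. It passed in 28 of 79 ribosomal protein genes with i-BET858 and in 24 with i-BET151, all downward. Among all genes tested, 12.6% and 6.82% passed downward and 14.6% and 6.99% upward. With i-BET858 the named genes among them were RPL22 (−1.22 on the log2 scale), RPL21 (−1.06), RPL6 (−0.78), RPL29 (−0.77), RPL3 (−0.74), RPS18 (−0.65), RPS3 (−0.64), RPL11 (−0.60) and RPL5 (−0.51). With i-BET151 they were RPL21 (−0.91), RPL29 (−0.77), RPL6 (−0.70), RPS3 (−0.66), RPL22 (−0.65), RPL3 (−0.64), RPL11 (−0.53) and RPL5 (−0.49). The RPS18 call was lost in 9 of 12 fits that left out 1 library, and the RPL5 call with i-BET151 in 5 of 12. Among the other alternatives, the adjusted p reached 0.0587 for RPL5 with i-BET858 and 0.0676 for RPL11 with i-BET151.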

How the results depend on the processing

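Counts of called genes moved with the settings as follows. Genes higher at 4 h with i-BET858 (46) numbered 6 and 1 at a fold change of at least 1.5 and 2, 23 among the 34 tested genes free of exon overlap, 20 with total library size, 71 with the replicate block and 24 to 44 with 1 library left out. With i-BET151 (11) these were 1, 1, 4, 4, 52 and 2 to 8, with 4 without a filter, 7 in DESeq2 and 6 in all 18 libraries. Genes higher at 24 h with i-BET858 (4) numbered 2, 1 and 2 by fold and overlap, 12 in replicates 1 and 2 (where 29.8% of all genes were higher) and 2 to 5 with 1 library left out. Genes lower at 24 h with i-BET858 (10) numbered 2, 0 and 5 by fold and overlap, 24 with total library size, 19 without a filter, 37 with the block, 30 in replicates 1 and 2 and 4 to 14 with 1 library left out. With i-BET151 (21) these were 6, 0, 9, 32, 41, 53, 45 and 8 to 23. The single gene higher with i-BET151 became 2 without a filter, in DESeq2, with the block, in the groups compared alone and in all 18 libraries, 4 in replicates 1 and 2 (where 26.0% of all genes were higher), 0 at 10 counts in every library, and 1 to 2 with 1 library left out. Between the drugs (0 and 0) the block gave 23 at 4 h and 3 at 24 h (9.63% and 4.37% of all genes). At 24 h no filter and DESeq2 gave 1 each (1.08% and 1.36% of all genes) and replicates 1 and 2 gave 8 (7.29%). Changes between times with i-BET858 (28) numbered 2 at 2-fold, 12 without overlap, 43 at 10 counts in every library, 65 with the block, 56 in replicates 1 and 2 and 22 to 41 with 1 library left out, and with i-BET151 (24) 0 at 2-fold, 11 without overlap, 39 without a filter, 68 with the block, 50 in replicates 1 and 2 and 15 to 30. The summed share at 4 h (1.47 points with i-BET858) was 2.32 by TMM-scaled CPM, 1.04 without the top 3 genes and 0.565 in genes free of overlap, 0.367 there with i-BET151, and ran from 1.26 to 1.72 and 0.719 to 1.10 with 1 library left out, against −1.58 to −0.234 and −2.14 to −0.799 at 24 h. Over all genes, total library size gave 10.2% and 6.62% higher at 4 h and 24.1% and 17.6% lower at 24 h (i-BET858, i-BET151), no filter 8.20%, 4.89%, 11.4% and 9.49%, and DESeq2 9.09%, 5.30%, 12.8% and 10.8%. With 1 library left out these shares were 10.4 to 14.3%, 4.93 to 7.94%, 16.6 to 18.9% and 11.4 to 16.1%. In such fits the change between times was downward in 9.97 to 11.7% (i-BET858) and 4.42 to 6.48% (i-BET151) of all genes. It was downward in 18.8% with i-BET858 at 10 counts in every library, and in 3.63% with i-BET151 without a filter. Shares of all genes at 1.5-fold are not given. Adding pseudogene counts, an alternative chosen after seeing the data, kept every count within 1.5 times. Beyond the counts given above the cause was not tested. Of 99 named calls 69 held whichever library was left out, and the block ended none and added 31.

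With 1 library left out, directions reversed in 14 named values, none of them called. At 4 h with i-BET151, RPL39 ran from −0.23 to 0.56 (log2 scale) and RPS27 from −0.090 to 0.59, and RPL39L with i-BET858 from −0.31 to 0.030. At 24 h with i-BET858, RPS2 ran from −0.040 to 0.29, RPLP0 from −0.058 to 0.49, RPS27 from −0.19 to 0.47, RPL13A from −0.43 to 0.029, RPL39 from −0.80 to 0.26, RPS16 from −0.42 to 0.12 and RPS19 from −0.53 to 0.080. At 24 h with i-BET151, RPLP0 ran from −0.26 to 0.23, RPL39 from −0.91 to 0.0011, RPS2 from −0.31 to 0.012 and RPS27 from −0.42 to 0.17. At 24 h every upper end was the value without DMSO replicate 3. RPS2 with i-BET858 was −0.018 with total library size, and RPLP0 with i-BET151 was 0.062 in replicates 1 and 2.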
